A study of Mus musculus with 36 samples.

Results

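Cxcl9, Cxcl10 and Cxcl11 encode the ligands of the chemokine receptor CXCR3, and all 3 of these genes were taken by name from a deposited count table of 54532 mouse genes. They were followed through 36 RNA-seq libraries of bone marrow-derived macrophages (BMDMs), which were grown from the marrow of adult female C57BL/6 mice for a week with the growth factor MCSF. The KO macrophages had the genotype LysM-Cre;Bmal1 flox/flox (n = 6 replicates) and the WT macrophages Bmal1 flox/flox (n = 3 replicates), so the floxed alleles were shared and Cre, driven by the myeloid LysM promoter, set the genotypes apart. Each replicate number labels 4 libraries, which differ in the treatment given for 6 h. It was DMSO (vehicle), CCM at 100 µM, LPS at 100 nM, or both agents (LPS+CCM). CCM (Core Circadian Modulator) is a small molecule that binds a PAS domain of the clock protein BMAL1, and LPS is the bacterial cell wall component sensed by TLR4. The labels do not say that each replicate is a separate animal, so p-values measure the spread between these libraries. They also do not say that same-numbered libraries come from the same animal.

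CXCR3 is carried by activated T cells and natural killer cells, which move towards cells that secrete its ligands. In macrophages, LPS engages TLR4, the adaptor TRIF and the transcription factors IRF3 and NF-κB induce interferon-β and Cxcl10, and interferon-β then acts back through its receptor on the same cells. Cxcl9 is best known as a target of interferon-γ. C57BL/6 mice carry an allele of Cxcl11 that yields no functional protein, so its counts are read here as RNA only.

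The 3 genes lie side by side on the minus strand of chromosome 5 (GRCm38, the build named mm10 in the labels). Cxcl9 (ENSMUSG00000029417) spans chr5:92321347-92328079 and overlaps no other annotated gene. Cxcl10 (ENSMUSG00000034855), at chr5:92346638-92348889, lies wholly within the interval of Art3, a gene of the opposite strand. Cxcl11 (ENSMUSG00000060183), at chr5:92359544-92365485, also lies within Art3, overlaps the pseudogene Gm2673, and is annotated as a polymorphic pseudogene. Whether the counting used strand is not given in the sources used here. Art3 itself held at most 14 counts in any library, against up to 34803 for Cxcl10 and 374 for Cxcl11.

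RefSeq promoter sequences (GRCm38.p6) were at hand for 2 of the 3 genes, Cxcl9 and Cxcl10. They are shown because the regulators described above act through short elements that can be looked for in these letters. The 250 bases before each transcription start are given on the gene's own strand, 5′ to 3′, from chr5:92328080-92328329 for Cxcl9 and chr5:92348890-92349139 for Cxcl10, with matches to the searched motifs in capitals.
Cxcl9: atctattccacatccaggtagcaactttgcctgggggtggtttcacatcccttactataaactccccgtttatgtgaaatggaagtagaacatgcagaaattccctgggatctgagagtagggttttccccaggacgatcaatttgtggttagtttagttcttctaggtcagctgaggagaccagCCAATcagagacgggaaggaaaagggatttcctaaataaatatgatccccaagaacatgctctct
Cxcl10: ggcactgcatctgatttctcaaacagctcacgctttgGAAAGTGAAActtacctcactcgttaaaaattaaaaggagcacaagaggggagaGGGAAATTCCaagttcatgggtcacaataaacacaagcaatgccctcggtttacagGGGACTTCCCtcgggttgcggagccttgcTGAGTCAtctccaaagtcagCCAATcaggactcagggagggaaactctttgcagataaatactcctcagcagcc

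Both strands were searched for 5 motifs, and no match overlapped another. The Cxcl10 window held the interferon-stimulated response element GAAANNGAAA once, with its first base 213 before the start, a motif found in 2.98% of 32851 promoter windows of the same length. It held the NF-κB consensus 2 times, beginning 159 and 103 bases before the start (3.9% of windows held at least 1). The AP-1 motif TGANTCA began 74 bases before the start (6.75% of windows) and a CCAAT box 54 bases before it (33.8%). In the Cxcl9 window the CCAAT box, beginning 65 bases before the start, was the only match. Neither window held the E-box CACGTG bound by CLOCK and BMAL1 (6.02%). These are matches of letters, not measured binding, and the absence of a match concerns these windows alone.

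The libraries held 13469262 to 28288923 counts on genes, with a median of 19951421. Levels are given as CPM, the count scaled by the library total and its TMM factor. A gene was called in a comparison where the p of edgeR's quasi-likelihood test, adjusted over all genes tested there, was at most 0.05. Macrophage markers summed to 11410 to 19980 CPM, whereas markers of T cells, natural killer cells and B cells reached at most 9.45, 3.05 and 10.4 CPM. Of the other cell types, fibroblast markers summed to 295 to 1659 CPM, neutrophil markers to 321 to 1011 CPM, and endothelial, erythroid and dendritic cell markers to at most 57.2, 10.9 and 7.07 CPM. Arntl, which encodes BMAL1, lay at 7.27 to 12.9 CPM in the 12 WT libraries and at 2.13 to 10.7 CPM in the 24 KO libraries, so the ranges overlapped. Counts over the whole gene cannot tell transcripts with the deleted part from those without it. KO replicate 6 stood apart, with the lowest Arntl under each of vehicle, CCM, LPS and LPS+CCM in KO and the highest summed neutrophil markers. KO replicate 2 had the highest Arntl of the KO libraries under CCM, LPS and LPS+CCM. It also had the highest summed macrophage markers in KO, at 17580, 18640, 16930 and 19980 CPM under vehicle, CCM, LPS and LPS+CCM. The KO medians were 12910, 12390, 12110 and 12330 CPM, and the WT libraries ran from 15790 to 19270 CPM. The reason was not tested. Under LPS+CCM, KO replicate 5 also stood apart by chi-square per degree of freedom, a measure of difference beyond counting noise. It was at 150.2 to 155.3 against replicates 1, 3 and 4, which lay at 10.11 to 16.84 from each other. Replicates 2 and 6 lay at 50.28 to 55.54 and at 275.8 to 304.4 from replicates 1, 3 and 4. Results that rest on KO macrophages are therefore also given without these replicates where it matters.

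LPS raised all 3 genes, which without it were low (Cxcl10) or barely detected (Cxcl9 and Cxcl11). Under vehicle, Cxcl10 was at 1.21, 2.07 and 0.746 CPM in WT libraries, and under LPS at 1295, 1335 and 1396 CPM. In KO macrophages, vehicle libraries held 2.06, 8.63, 0.932, 2.67, 2.50 and 1.04 CPM of Cxcl10, and LPS libraries ran from 1080 to 1576 CPM with a median of 1336. The groups were separated by more than 100-fold in every case. The pooled ratio was 1071-fold in WT (95% counting interval 884 to 1309) and 428-fold in KO (389 to 473). These intervals cover counting error only. The fitted log2 fold changes were 10.04 ± 0.20 (SE) in WT, with an adjusted p of 7.492e-11 by edgeR, and 8.79 ± 0.58 in KO, with an adjusted p of 3.856e-08. Without KO replicate 2, whose vehicle library held the 8.63 CPM, the KO change was 9.44.

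Cxcl9 was barely detected without LPS, with 2 to 3 counts per WT vehicle library and 0 to 13 counts per KO vehicle library. Under LPS it reached 103, 112 and 90.3 CPM in WT libraries. In KO libraries it reached 97.7, 87.0, 154, 97.4, 115 and 102 CPM, of which replicate 3 was the highest. The pooled ratio of LPS to vehicle was 1210-fold in WT (95% counting interval 587 to 3011) and 806-fold in KO (510 to 1361), and edgeR called both, with adjusted p of 4.748e-11 and 1.878e-08. Of the 18 KO vehicle counts, 13 were in replicate 2, and without that replicate the fitted log2 change in KO was 11.12 in place of 9.59.

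Cxcl11 was the least abundant. A single count was found among the 9 vehicle libraries, in WT replicate 1, and none among the 9 CCM libraries. In these 18 libraries a floor of 3 counts corresponded to 0.0895 to 0.241 CPM. Under LPS it rose to 12.9, 9.23 and 15.0 CPM in WT and to between 9.42 and 14.5 CPM in KO (median 11.8). In KO this was at least 536-fold higher than vehicle, against 3 counts over the group. In WT the ratio was 1033-fold but rested on that 1 count, with a counting interval of 185 to 40860. The edgeR calls had adjusted p of 4.59e-08 in WT and 4.812e-08 in KO. LPS raised many genes besides these: edgeR called 30.6% of the genes tested higher in WT and 22.4% in KO.

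**Figure D1:**
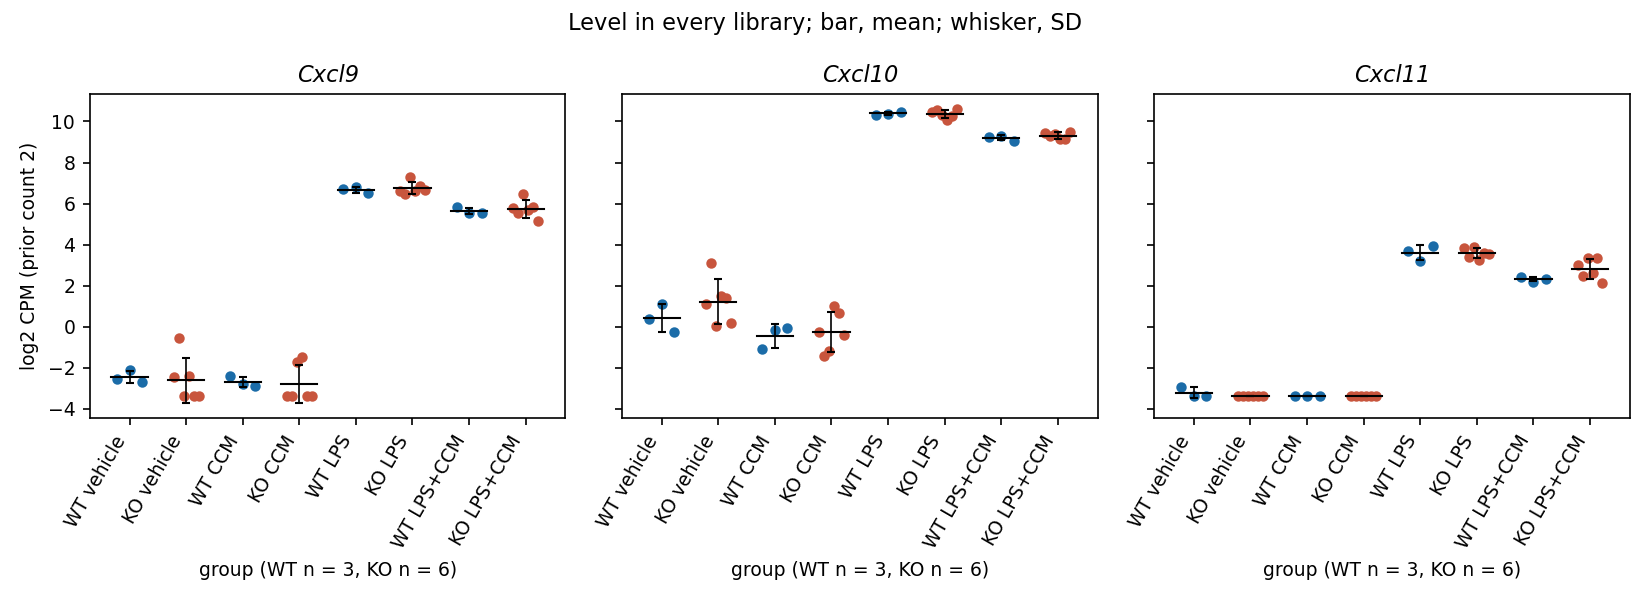
Level of each gene in the 36 libraries on the log2 CPM scale (prior count 2), by group, with WT in blue and KO in red. Horizontal bars are means and whiskers SD; libraries with LPS stand far above those without, and those with LPS+CCM sit below those with LPS, overlapping them in KO for Cxcl9 and Cxcl11.

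The order of the 8 groups can be read from Cxcl10, which was detected in every library. The mean was 1342 ± 50.6 CPM in WT LPS (SD, n = 3) and 1339 ± 187 in KO LPS (n = 6), then 638 ± 66.5 in KO LPS+CCM and 592 ± 50.6 in WT LPS+CCM. Far below followed KO vehicle at 2.97 ± 2.86, WT vehicle at 1.34 ± 0.674, KO CCM at 0.903 ± 0.662 and WT CCM at 0.672 ± 0.267. Neighbours within the LPS pair, within the LPS+CCM pair and among the 4 groups without LPS differed by less than the larger of their SDs. The steps from LPS to LPS+CCM and from there to the unstimulated groups exceeded the spread. For Cxcl9 the corresponding means were 109 ± 24.02 CPM in KO LPS, 102 ± 11.2 in WT LPS, 55.9 ± 18.2 in KO LPS+CCM and 49.8 ± 5.36 in WT LPS+CCM.

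Compared per kilobase of gene length, the level of Cxcl10 in WT LPS libraries was 596 ± 22.5 CPM per kb, that of Cxcl9 33.8 ± 3.70 and that of Cxcl11 3.26 ± 0.768 (SD, n = 3). In KO LPS libraries the values were 595 ± 83.0, 36.1 ± 7.96 and 3.16 ± 0.533 CPM per kb (n = 6). The order Cxcl10, Cxcl9, Cxcl11 was thus the same in both genotypes.

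The addition of CCM to LPS lowered all 3 genes in WT macrophages, to 44.1% of the mean LPS level for Cxcl10, 48.8% for Cxcl9 and 39.7% for Cxcl11. Cxcl10, an attractant of activated T cells, was at 601, 637 and 537 CPM in the WT LPS+CCM libraries. No library with CCM reached the lowest library without it. The log2 fold change was -1.18 ± 0.06 (SE), with an adjusted p of 1.244e-05 by edgeR, and only 2 of the 13579 genes tested had a smaller p. Cxcl9 was at 56.0, 46.4 and 47.0 CPM, again with no overlap, a log2 change of -1.03 ± 0.09 and an adjusted p of 9.732e-05 by edgeR. Cxcl11 was at 5.30, 4.50 and 4.94 CPM, below each of its LPS libraries, with a log2 change of -1.33 ± 0.18 and an adjusted p of 0.001131 by edgeR. In this comparison 7.78% of the genes tested were called lower. In the same-numbered WT libraries, 38.5 to 47.7% of the Cxcl10 level remained with CCM, 41.3 to 54.2% of Cxcl9 and 33.0 to 48.7% of Cxcl11. In a fit of all 36 libraries, which takes its spread from KO libraries as well, none of these 3 calls was kept (adjusted p by edgeR 0.700 for Cxcl10, 0.743 for Cxcl9 and 0.120 for Cxcl11).

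In KO macrophages the 3 genes were also lower with CCM, in 6 of 6 same-numbered libraries for each. In this comparison the replicate numbers were not shown to pair the samples. Cxcl10 was at 688, 623, 681, 565, 557 and 713 CPM with LPS+CCM, all below the lowest LPS library at 1080. Its log2 fold change was -1.09 ± 0.13 (SE), with an adjusted p of 0.00536 by edgeR, the second smallest p of the 13386 genes tested. Cxcl9 was at 54.8, 46.5, 89.6, 51.9, 56.8 and 35.5 CPM. Replicate 3, the highest both with and without CCM, made the groups overlap by reaching above the lowest LPS library at 87.0. Its log2 change of -0.98 ± 0.21 missed the threshold, with an adjusted p of 0.0961 by edgeR. Cxcl11 was at 7.94, 5.45, 10.2, 6.05, 9.98 and 4.23 CPM, overlapping the LPS range, with a log2 change of -0.73 ± 0.22 and an adjusted p of 0.290 by edgeR. By edgeR, 0.105% of the genes tested were called lower in KO macrophages. The 15 genes called either way there became 170 without KO replicate 6 and 0 without replicate 1 or without replicate 2, and numbered 200 by DESeq2 and 768 by limma's voom.

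The share that remained in KO was 48.0 ± 4.68% for Cxcl10, 50.9 ± 8.31% for Cxcl9 and 60.6 ± 16.4% for Cxcl11 (SD, n = 6), against 44.2 ± 5.003, 49.2 ± 6.91 and 41.0 ± 7.88% in WT (n = 3). These shares divide same-numbered libraries, which were not shown to be paired in KO. As percents of the KO LPS group means, the LPS+CCM means were 47.6% for Cxcl10, 51.4% for Cxcl9 and 60.95% for Cxcl11. For Cxcl11 the share ran from 36.3% in KO replicate 6 to 84.2% in KO replicate 5. The KO calls were sensitive to single replicates and to the tool. Without KO replicate 2 the Cxcl10 change was -1.05 with an adjusted p of 0.114 by edgeR, and without replicate 1 it was -1.10 with 0.0851. Without KO replicate 6, Cxcl10 stayed called at -1.05 (adjusted p 0.003632 by edgeR), Cxcl9 became called at -0.88 (0.0495), as it did without replicate 3 at -1.04 (0.0432), and Cxcl11 stayed uncalled at -0.61 (0.162). Without KO replicate 5, Cxcl10 stayed called at -1.08 (adjusted p 0.0332 by edgeR), while Cxcl9 and Cxcl11 stayed uncalled at -0.97 (0.348) and -0.84 (0.447).

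**Figure D2:**
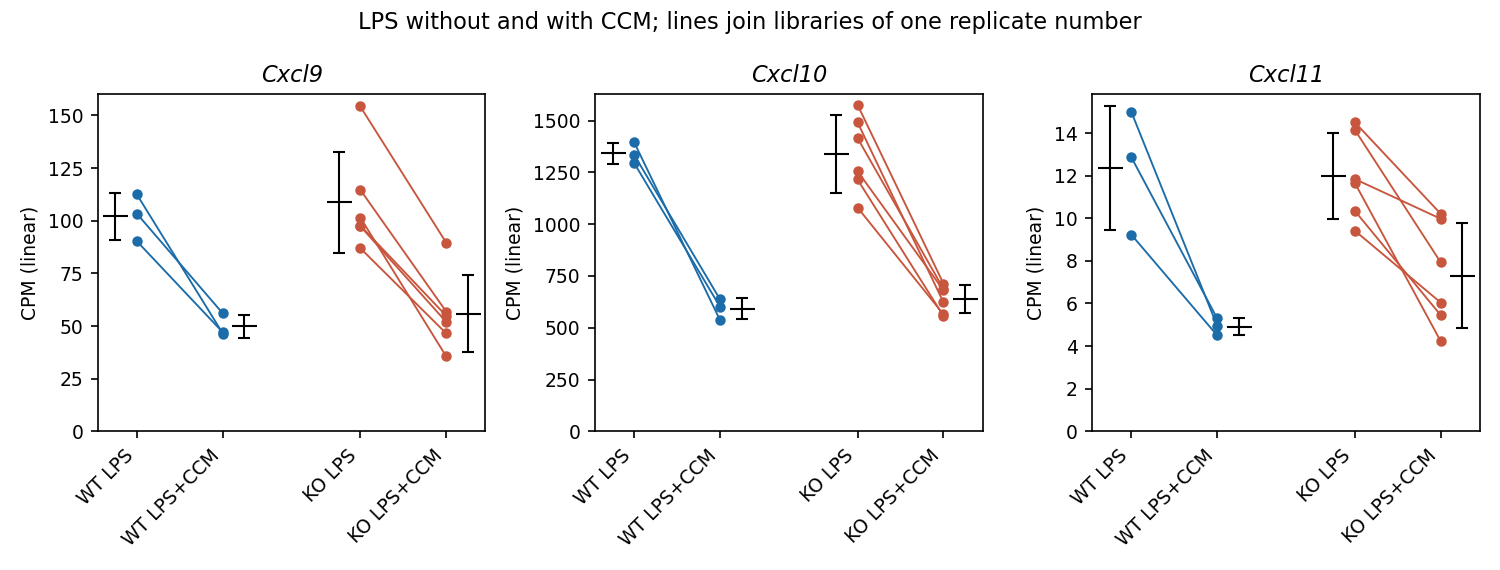
CPM of each gene on a linear axis in LPS and LPS+CCM libraries, WT in blue and KO in red, with lines joining libraries of the same replicate number and bars for the mean and SD. Every line falls, and for Cxcl10 all LPS+CCM points, at 713 CPM or lower, lie below all LPS points, at 1080 CPM or higher.

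Whether the CCM response under LPS differed between genotypes was tested as an interaction in the 18 LPS-treated libraries. The difference of the log2 changes, KO minus WT, was 0.11 for Cxcl10 (95% interval -0.25 to 0.47), 0.07 for Cxcl9 (-0.54 to 0.69) and 0.62 for Cxcl11 (-0.07 to 1.30), each with an adjusted p of 1 by edgeR. Of all genes tested, 0% were called, with 72 of 14546 at an unadjusted p under 0.05, and DESeq2 and limma's voom also called 0. Evenly spread p-values would put a share of 0.05 there, more than these 72. The edgeR p-values thus run high, for a reason that was not tested. These intervals leave room for differences of either sign, and the absence of a call does not show equal responses. Without KO replicate 5, the difference for Cxcl11 was 0.50.

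CCM alone could be tested for Cxcl10 only, since Cxcl9 and Cxcl11 had too few counts without LPS to pass the filter. Cxcl10 was at 0.367, 0.785 and 0.864 CPM in WT CCM libraries, which overlapped vehicle. The log2 change was -0.98 ± 0.45 (SE) with an adjusted p of 0.522 by edgeR, where 0.057% of genes were called. In KO CCM libraries it was at 0.733, 0.271, 0.346, 1.92, 1.49 and 0.654 CPM, lower than in the same-numbered vehicle library in 6 of 6 cases although the groups overlapped. The log2 change of -1.70 ± 0.62 had an adjusted p of 0.9999 by edgeR, and without KO replicate 2 it was -0.84. In that comparison 0% of genes were called by edgeR, with 333 of 13799 at an unadjusted p under 0.05, while DESeq2 called 42 and limma's voom 299. Here too the 333 fall short of a share of 0.05. Same-numbered libraries deviated together in this comparison, and with the replicate block the Cxcl10 change was -1.53 with an adjusted p of 0.117 by edgeR.

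Whether CCM acted differently with and without LPS was tested as a further interaction. For Cxcl10 the difference of log2 changes was -0.28 ± 0.40 (SE) in WT, with an adjusted p of 0.831 by edgeR, and 0.65 ± 0.59 in KO, with an adjusted p of 0.9999. For Cxcl9 it was -0.56 ± 0.91 in WT and -0.32 ± 1.15 in KO, neither called. Without LPS, Cxcl9 held only 7 counts with vehicle and 4 with CCM in WT, and 18 and 11 in KO. Leaving out replicates moved the KO value from -2.06 to 0.55, so for Cxcl9 this test cannot decide the question. The test called 2.09% of genes in WT and 0.00685% in KO. For Cxcl11 the unstimulated libraries held at most 1 count, so no difference is given.

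Between the KO and WT genotypes, edgeR called no difference in these genes. Under LPS the log2 difference, KO minus WT, was 0.09 for Cxcl9 (95% interval -0.25 to 0.44), -0.00 for Cxcl10 (-0.25 to 0.25) and -0.04 for Cxcl11 (-0.42 to 0.33). The adjusted p values were 0.986, 0.996 and 0.986 by edgeR, and the ranges of the KO and WT libraries overlapped for each gene. Here 0% of genes were called by edgeR, with 105 at an unadjusted p under 0.05, 2 calls by DESeq2 and 1 by limma's voom. Under vehicle, Cxcl10 differed by 1.18 ± 0.70 on the log2 scale (SE, adjusted p of 1 by edgeR), and by 0.51 without KO replicate 2. That comparison called 0% of genes by edgeR, with 118 at an unadjusted p under 0.05, 1 call by DESeq2 and 0 by limma's voom. The genotype difference in the LPS response was -1.19 ± 0.69 for Cxcl10 on the log2 scale, and -0.54 without KO replicate 2. For Cxcl9 it was -0.53 ± 0.96, on only 7 vehicle counts in WT and 18 in KO. Both had an adjusted p of 1 by edgeR. For Cxcl11 the difference was 1.56 ± 0.86, also with an adjusted p of 1 by edgeR, on the single vehicle count in WT and 0 in KO. This interaction too called 0% of genes, with 112 at an unadjusted p under 0.05 and 0 calls by DESeq2 or limma's voom. In each of these genotype comparisons, fewer genes than a share of 0.05 had an unadjusted p under 0.05. Their edgeR p-values thus also run high, and the absence of calls does not show equal levels.

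**Figure D3:**
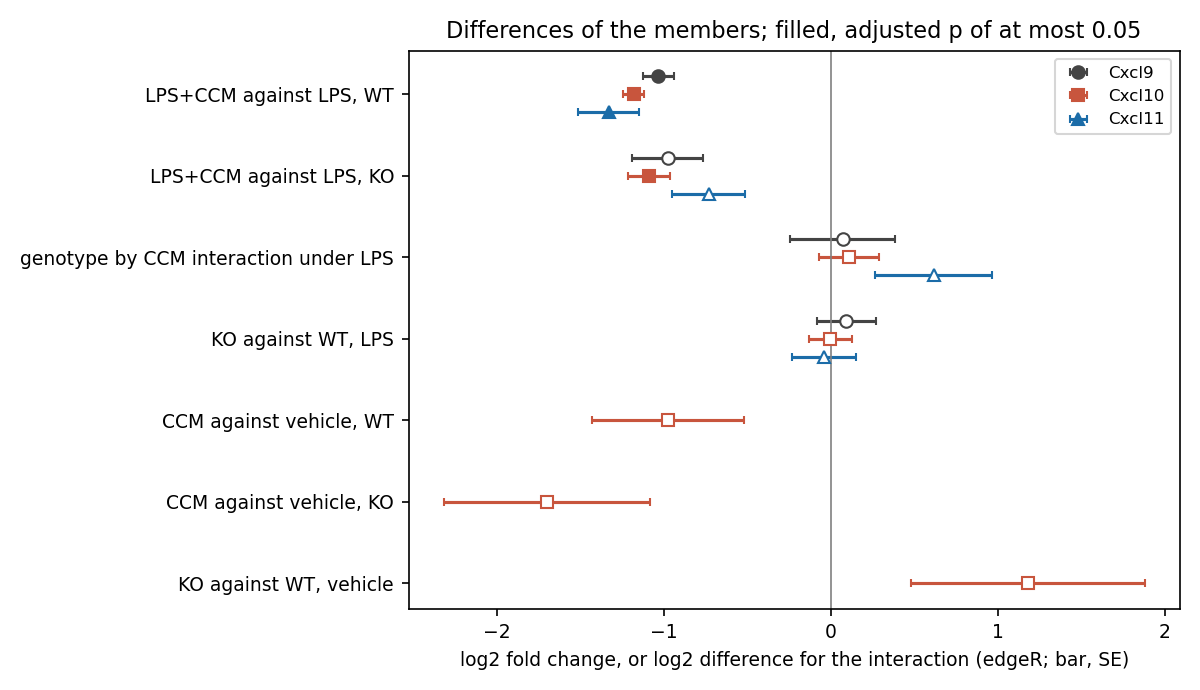
Log2 fold changes, or log2 differences for the interaction, of the 3 genes in 7 comparisons, with SE bars (edgeR); filled symbols mark an adjusted p of at most 0.05. All symbols for CCM under LPS lie between -1.33 and -0.73, while those for KO against WT under LPS lie within 0.1 of 0.

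Because the 3 genes fell together, their proportions were compared within each library, which removes library scaling. In WT LPS libraries the Cxcl9 level per kb was 5.96, 6.29 and 4.83% of that of Cxcl10, and with CCM it was 6.96, 5.45 and 6.54%. The ranges overlapped, and the log2 ratio differed by 0.15 (exact two-sided permutation p = 0.4, where 0.1 is the smallest that 3 against 3 allow). In KO it was 6.21 ± 1.81% with LPS and 6.60 ± 2.06% with LPS+CCM (SD, n = 6), a log2 difference of 0.07 (exact permutation p = 0.775). KO replicate 3 had the highest share of Cxcl9 both without (9.18%) and with CCM (9.82%).

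For Cxcl11 the share was 0.547 ± 0.120% of Cxcl10 with LPS in WT and 0.499 ± 0.0679% with LPS+CCM (n = 3, exact permutation p = 0.6). In KO libraries it was 0.539 ± 0.103% and 0.693 ± 0.255% (n = 6, exact permutation p = 0.275), and with CCM it ran from 0.355 to 1.07%. Between genotypes under LPS the exact permutation p was 0.762 for Cxcl9 and 0.952 for Cxcl11. LPS against vehicle gave p = 0.00866 by exact permutation for Cxcl9 in KO, which was 0.0866 after adjustment over the 10 ratio tests, and vehicle ratios are set largely by the pseudocount of 0.5 at counts near 0. None of the other 9 tests had an adjusted p below 0.861.

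**Figure D4:**
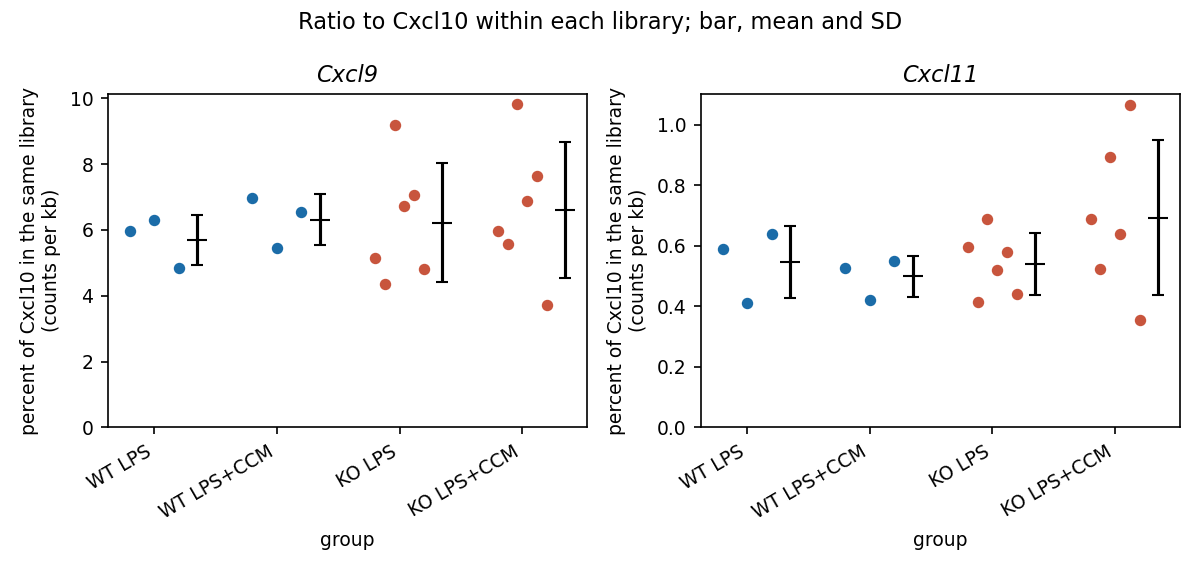
Level per kb of Cxcl9 and Cxcl11 as a percent of Cxcl10 in the same library, for the 18 LPS-treated libraries, with bars for the mean and SD. All groups overlap, and the widest range is that of Cxcl11 in KO LPS+CCM, from 0.355 to 1.07%.

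The deviations of the genes from their group means were also compared. Over the 18 LPS-treated libraries, deviations on the log2 scale correlated at r = 0.67 between Cxcl9 and Cxcl11, at -0.17 between Cxcl9 and Cxcl10 and at -0.04 between Cxcl10 and Cxcl11. Over all 36 libraries, of which those without LPS had counts near 0 for Cxcl9 and Cxcl11, the same values were 0.22, 0.51 and -0.01. These are descriptions over libraries that share replicate numbers and depth.

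Genes of the receptor side were low. Cxcr3, the shared receptor, was at 3.74 ± 0.528 CPM in WT vehicle libraries and 0.929 ± 0.132 CPM under LPS (SD, n = 3). It fell by 1.996 on the log2 scale in WT (SE 0.24, adjusted p 4.09e-05 by edgeR) and by 1.89 in KO (adjusted p 1.815e-06 by edgeR), opposite to its ligands. Of 5 natural killer cell markers 1 could be tested, Klrb1c (named after its values were seen), and it was lower with LPS by edgeR, at -3.31 in WT and -3.15 in KO. Their summed level in WT was 0.839 to 1.62 CPM with vehicle and 0.431 to 0.885 CPM with LPS, while that of 6 T cell markers was 0.657 to 1.98 and 3.84 to 5.01 CPM. Of these 6 only 1 could be tested for LPS in WT, and edgeR called it higher at 2.14, beside 30.6% of all genes. The part of these cells in the Cxcr3 level was not tested. CCM under LPS left Cxcr3 uncalled at 0.20 in WT and -0.65 in KO. Dpp4, a protease that trims these chemokines, was at 0.258 ± 0.0760 CPM in WT vehicle and 0.615 ± 0.108 CPM in WT LPS libraries. Ackr3, an atypical receptor that also binds CXCL11, had between 0 and 96 counts per library and was not tested under LPS in WT.

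Upstream of the ligands, LPS raised 7 of 9 tested genes from TLR4 to TRIF and 13 of 15 interferon signalling genes in WT, where 30.6% of all genes tested were called higher. CCM under LPS then lowered 7 of the 15 interferon signalling genes in WT, and 1 was higher, beside 7.78% of all genes called lower and 4.15% higher. The median log2 change of these 15 was -0.23, beside 0.01 over all genes. Ifnb1, which encodes interferon-β, was at 1.95, 1.29 and 1.68 CPM in WT LPS libraries and at 0.476, 0.366 and 0.260 CPM with CCM, on 5 to 42 counts. Its log2 change was -2.14 ± 0.35 (SE) with an adjusted p of 0.003223 by edgeR, and the groups did not overlap. Ifnb1 was also called by limma's voom but not by DESeq2, where its unadjusted p was under 0.05. DESeq2 gave no adjusted p for 2 of the 15 genes. It called 7 of the 15 lower, and limma's voom 8. Over all genes, DESeq2 called 1558 either way and limma's voom 1909. Irf1 fell by 0.82, Irf7 by 0.45 and Stat2 by 0.32, the largest adjusted p of these being 0.004879 by edgeR. Irf9 (-0.12) and the receptor gene Ifnar1 (0.06) were not called. Ifng, which encodes interferon-γ, was at 1.35 ± 0.546 CPM with LPS in WT and 0.574 ± 0.319 CPM with LPS+CCM and was not called (adjusted p 0.132 by edgeR).

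In KO macrophages edgeR called 0 of these 15 genes under CCM with LPS, where it called 0.105% of all genes lower, so that this count is near the share over all genes. At an unadjusted p under 0.05 the edgeR count was 6, and the number over all genes at that threshold is not given here. DESeq2 called 1 of the 15 and limma's voom 4, of which 3 were lower. Over all genes these tools called 200 and 768 either way. The median log2 change of the 15 was -0.24 beside 0.00 over all genes. Ifnb1 in KO ran from 0.985 to 3.41 CPM with LPS and from 0.348 to 1.22 CPM with LPS+CCM, which overlap, with a log2 change of -1.26 ± 0.37 (SE) and an adjusted p of 0.271 by edgeR. The other values in KO were -0.67 for Irf1, -0.38 for Irf7 and -0.47 for Stat2.

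On the TLR4 and NF-κB side, Tlr4 was not called with CCM in WT (0.06 on the log2 scale) or KO (-0.26). Of 9 genes from TLR4 to TRIF, 1 was called lower in WT, the kinase gene Tbk1 at -0.25, a count near the 7.78% of all genes called lower. Against that same share, of 6 genes on the NF-κB list 4 were lower, between -0.29 and -0.41. They were Nfkb1, Nfkb2, Rel and Nfkbiz, of which Nfkbiz does not encode an NF-κB subunit. Of 6 feedback inhibitors, against the same share, 2 were lower, Tnfaip3 at -0.32 and the interferon-induced Usp18 at -0.64. DESeq2 and limma's voom each called 4 of the 6 lower, beside 1558 and 1909 of all genes called either way. Nfkbia, the inhibitor induced by NF-κB, missed the threshold at -0.21 (adjusted p 0.0548 by edgeR). In KO, edgeR called 0 genes of these 3 lists, with 0.105% of all genes called lower. At an unadjusted p under 0.05 the KO counts were 0 for TLR4 to TRIF, 0 for the NF-κB list and 2 for the inhibitors. DESeq2 called 0, 0 and 1 of them, and limma's voom 0, 2 and 2. Over all genes in KO these tools called 200 and 768 either way. Tbk1, Nfkb1, Nfkb2, Rel, Nfkbiz, Tnfaip3 and Usp18 were named after their values were seen.

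The list of other CXC chemokines was also examined. Of 10 tested under CCM with LPS in WT, 4 were lower, by 0.28 to 0.98 on the log2 scale (Cxcl1, Cxcl2, Cxcl5 and Ppbp), beside 7.78% of all genes called lower, and the median log2 change was -0.10. Cxcl2, Cxcl5 and Ppbp were named after their values were seen. Cxcl1, a neutrophil attractant, was at 333 ± 37.2 CPM with LPS in WT and 274 ± 13.6 CPM with LPS+CCM (SD, n = 3), a log2 change of -0.28 ± 0.08 (SE) with an adjusted p of 0.0378 by edgeR. Cxcl16, the ligand of CXCR6, stayed uncalled at -0.09. In KO, edgeR called 0 of the 9 tested, with 1 at an unadjusted p under 0.05, and DESeq2 and limma's voom also called 0, where edgeR called 0.105% of all genes lower.

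The genes around the ligands were examined in the same way. Of the 17 other genes within 200 kb, 9 were tested for LPS in WT, and 6 were higher and 2 lower, where 30.6% of all genes were called higher and 32.4% lower. Naaa rose by 1.72, Sdad1 by 0.93 and Nup54 by 0.71 on the log2 scale. U90926, named after its values were seen, rose from 0.0692 ± 0.0619 to 74.5 ± 8.37 CPM (SD, n = 3). With CCM under LPS, edgeR called 0 of 8 neighbours in WT, with a median log2 change of -0.00, and 0 of 8 in KO. At an unadjusted p under 0.05 the WT count was 1, U90926, which both DESeq2 and limma voom called. Over all genes in WT, DESeq2 called 1558 and limma voom 1909 either way. In KO neither tool called a neighbour, and the counts at an unadjusted p under 0.05 were 0 by edgeR, 0 by DESeq2 and 1 by limma voom. U90926 was at -0.31 (adjusted p 0.0647 by edgeR), Naaa at 0.15, Sdad1 at 0.06 and Nup54 at -0.10 in WT. Art3, on 8 to 12 counts per WT LPS library and 4 to 6 with CCM, was too low to test there.

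**Figure D5:**
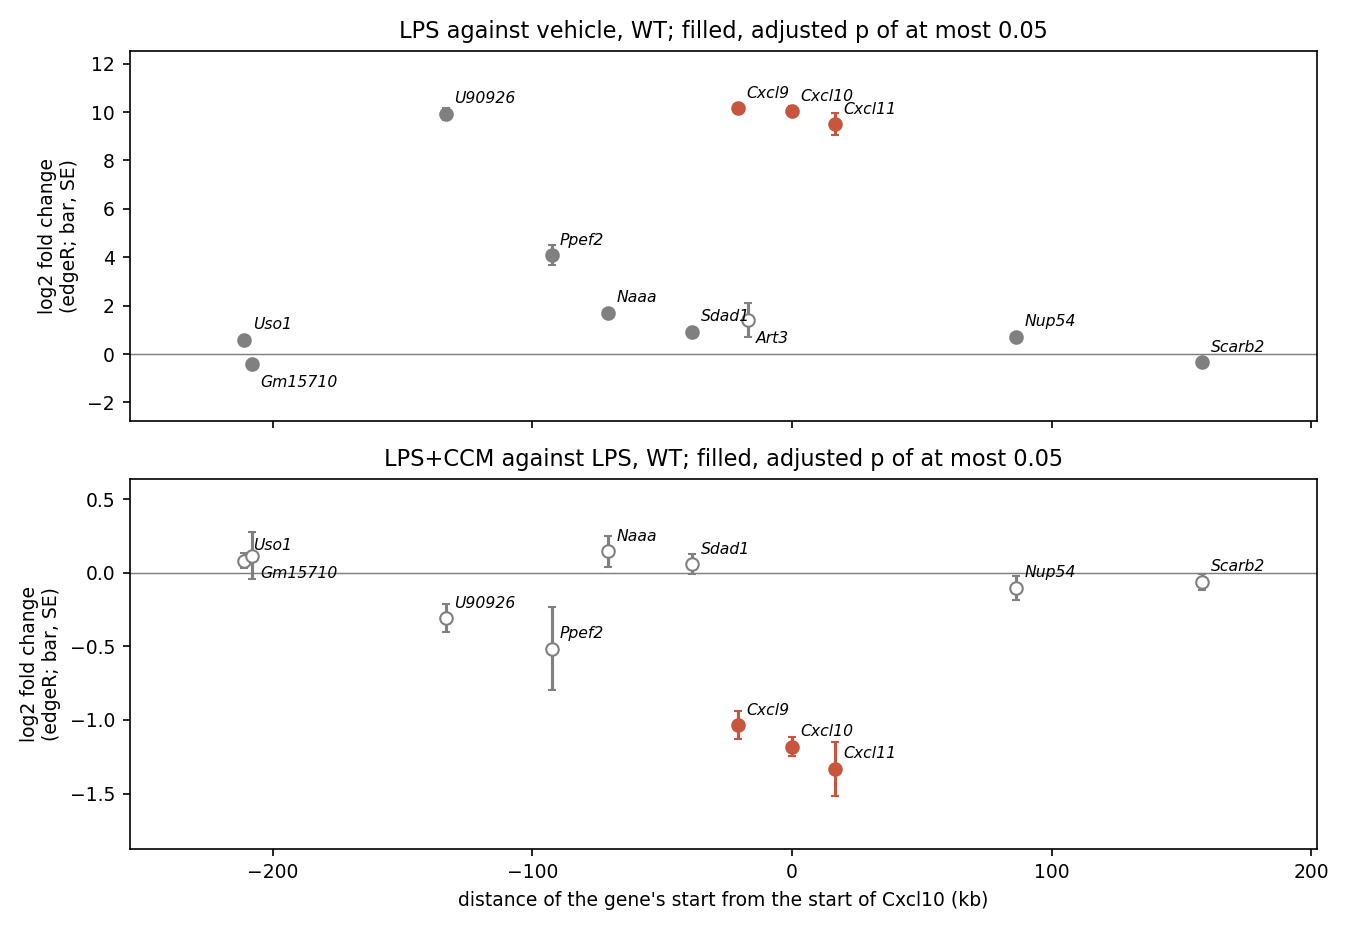
Log2 fold changes with SE (edgeR) of the tested genes around the ligands in WT macrophages, against the distance in kb from the start of Cxcl10, for LPS against vehicle (top) and LPS+CCM against LPS (bottom); filled symbols mark an adjusted p of at most 0.05. The ligands, in red, are the only filled symbols in the lower panel, between -1.03 and -1.33, and the top value of Cxcl11 rests on 1 vehicle count.

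Among 12569 other genes with a mean of at least 1 CPM, those whose log2 level followed the ligands most closely over the 36 libraries were Rsad2, Gbp2, Shisa3, Cmpk2 and Clec4e for Cxcl9 (r = 0.993 to 0.994). For Cxcl10 they were Slfn1, Rsad2, Mx1, Usp18 and Ifit1 (r = 0.993 to 0.994), and for Cxcl11 Mlkl, Sp110, Irgm1, Lgals9 and Casp4 (r = 0.995 to 0.997). Every one of these values includes the step between libraries with and without LPS. By deviations from the 8 group means, Cxcl9 was followed most closely by Acod1, Shisa3, Gbp2, Il12b and Nos2 (r = 0.69 to 0.73) and Cxcl10 by Rsad2, Mx1, Il1b, Slfn1 and Ifi205 (r = 0.68 to 0.73). For Cxcl11, which was at 0 counts in nearly all libraries without LPS, they were Stard5, Rgs1, Fcrl1, Pik3c3 and Dnaja2 (r = 0.65 to 0.67).

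Markers of other cells were compared for CCM under LPS. In bulk RNA, fewer cells of a type and less RNA per cell cannot be told apart. The summed level of 5 dendritic cell markers was 5.05 to 5.31 CPM in the WT libraries with LPS and 2.56 to 3.12 CPM in those with LPS+CCM, and that of 3 endothelial markers 28.5 to 29.2 and 13.0 to 17.4 CPM. By gene, edgeR called 0 of the 3 tested dendritic cell markers in WT, with 2 at an unadjusted p under 0.05, 0 calls by DESeq2 and 1 by limma's voom. Of the 3 endothelial markers it called 1, Kdr, at -1.46 (named after its values were seen). In KO the dendritic sums overlapped (3.34 to 5.83 and 3.34 to 7.07 CPM), as did the endothelial sums (22.7 to 36.3 and 8.08 to 23.4 CPM). There edgeR called 0 of the 3 tested dendritic and 0 of the 3 endothelial markers, beside 0.105% of all genes called lower. For each list 1 gene had an unadjusted p under 0.05 by edgeR. The endothelial one, Kdr, was called lower in KO by DESeq2 and limma's voom, which called 0 dendritic markers. These tools called 200 and 768 of all genes either way in KO. Macrophage markers summed to 15790 to 16430 CPM with LPS and 16540 to 16820 CPM with LPS+CCM in WT, without overlap. Of 8 macrophage markers edgeR called 3, 2 lower and 1 higher (Csf1r, Fcgr1 and Mertk), as did DESeq2 and limma's voom. By edgeR, 7.78% of all genes were called lower and 4.15% higher. Neutrophil markers summed to 390 to 433 and 331 to 397 CPM in WT, and each tool called 1 of 6 lower, S100a9. Csf1r, Fcgr1, Mertk and S100a9 were named after their values were seen. Fibroblast markers overlapped in WT, at 514 to 729 and 601 to 699.9 CPM. T cell markers overlapped in WT as well, at 3.84 to 5.01 and 3.23 to 4.18 CPM. The part of these markers in the ligand levels was not tested.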

How the data were processed

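RNA-seq of BMDMs from WT (n = 3) and KO (n = 6) mice under 4 treatments gave 36 libraries. The authors captured poly(A) RNA and read both ends of each fragment. Per the labels and the study's methods, fastp cleaned the reads, HISAT2 2.0.5 placed them on mm10 and featureCounts 1.5.0-p3 summed them by gene. The deposited table gives the resulting raw counts of 54532 genes beside each gene's length, and the authors ran DESeq2 on them. All 36 count columns were used. No 2 libraries of a group were alike within counting noise, the lowest chi-square per degree of freedom being 4.08.

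For each comparison, the groups concerned were fitted alone with edgeR 4.0.16 in R 4.3.3 (filterByExpr, TMM, glmQLFit, glmQLFTest, no block, Benjamini-Hochberg adjustment at 0.05), all tests two-sided. SE is the log2 change divided by the square root of F, and 95% intervals use this SE. The procedure was tested on simulated data with known changes. Within-library ratios used log2((count + 0.5)/kb) and exact permutation tests (scipy 1.17.1), adjusted over 10 tests. Alternatives were DESeq2 1.42.0, voom with quality weights in limma 3.58.1, other scalings, no filter beyond 1 count, all libraries in 1 fit, a replicate block and leaving out libraries.

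The named genes are the 3 ligands, Art3, 3 other neighbours, 15 genes picked from pathway lists (1 of them is not reported here), and for each ligand the 5 genes most alike by level and by deviation. The ligands and all lists, cell type markers included, were chosen with earlier results of these data known. Pairing by replicate number was checked on the correlations between the deviations of same-numbered libraries. All were over 0.1 for LPS in KO (0.299 to 0.829), CCM in KO (0.338 to 0.842) and CCM under LPS in WT (0.151 to 0.36), so these were treated as paired in the replicate block. For CCM under LPS in KO the lowest was -0.1.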

Additional observations from a re-analysis of the deposited data

Results flagged for a closer look

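KO vehicle replicate 2 lay far above the other KO vehicle libraries for 2 of the 3 genes. It held 8.63 CPM of Cxcl10, where the gap to the next library was 0.774 of the whole range of 6, and 0.578 CPM of Cxcl9, on 13 counts, where the gap was 0.839 of the range. The bar for 6 samples is 0.625. Chance passes about 1 in 20 such groups, and 14 groups were examined. Under LPS the same replicate held 1492 CPM of Cxcl10, inside the range of the group.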

How the results depend on the processing

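Over 30 results for the ligands, 427 of 462 refits kept direction and side of the threshold, 6 lost a call, 7 gained one and 22 turned sign, all 22 in differences that were not called. The fit of all 36 libraries lost the WT calls for CCM under LPS (-1.03 for Cxcl9, -1.18 for Cxcl10, -1.33 for Cxcl11) and the KO call of Cxcl10 (-1.07, adjusted p 0.109 by edgeR). For CCM under LPS in KO, Cxcl9 was called by DESeq2 (-0.98), voom (-0.88) and with the replicate block (-1.01), and Cxcl11 by voom (-0.74) and with the replicate block (-0.77). The replicate numbers were not shown to pair the samples there. In the comparisons treated as paired, the block changed no call of the ligands. DESeq2 gave no adjusted p for Cxcl10 with CCM alone in WT or for Cxcl11 in LPS by CCM in WT, and both were left out of these numbers. Leaving out replicates gave -1.04 to -0.88 for Cxcl9 and -1.13 to -1.05 for Cxcl10 in KO. The cause of these changes was not tested.

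Signs turned in differences near 0 or resting on unstimulated counts near 0. For KO against WT under LPS, Cxcl9 was -1.81e-05 by voom and -0.030 to 0.17 on leaving out replicates. Cxcl10 was 0.00861 by DESeq2, 0.00865 with RLE factors, 0.0044 with upper-quartile factors and -0.056 to 0.050 on leaving out replicates. Cxcl11 was 0.11 by voom and -0.22 to 0.12. For genotype by CCM, Cxcl9 ran from -0.055 to 0.16. For genotype by LPS, Cxcl9 was 0.45 by voom and ran from -0.90 to 1.01, and Cxcl11 ran from -0.010 to 2.20. For LPS by CCM in WT, Cxcl10 ran from -0.68 to 0.058, and Cxcl11 was -1.08 by voom and ran from -1.33 to 0.83. In KO, Cxcl9 ran from -2.06 to 0.55 and Cxcl10 from -0.18 to 0.997.

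Of the ratios, that of Cxcl9 for KO against WT under LPS was -0.016 by medians and -0.035 to 0.18 on leaving out replicates, and for LPS in WT 0.097 by medians and -0.25 to 0.15. That of Cxcl11 ran from -0.21 to 0.11 for KO against WT and from -0.54 to 0.21 for LPS in KO.

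Genes called under CCM with LPS numbered 17 to 3220 in WT (1621 as reported) and 0 to 777 in KO (15). With CCM alone they numbered 0 to 377 in WT (8) and 0 to 429 in KO (0), for LPS by CCM 0 to 721 in WT (308) and 0 to 100 in KO (1), and for LPS 5644 to 10611 in WT and 5429 to 9774 in KO. For KO against WT they numbered 0 to 1 under vehicle and 0 to 2 under LPS, and 0 in each refit of both genotype interactions.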
